A study of Rattus norvegicus with 4 samples.

Results

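A set of 9 genes of liver stellate cells and of the extracellular matrix was followed in the livers of untreated rats. The genes were Col1a1, Col1a2, Col3a1, Des, Vim, Sparc, Dcn, Lum and Timp1, so 9 of the 10412 genes named on the array. All of their probe sets were taken by gene symbol, with older symbols allowed. They had 12 probe sets in all, of 12789 with 1 gene symbol. Col1a1, Col1a2 and Sparc had a pair each and the remaining 6 genes had 1 each. The rule uses no signal value, but the genes were listed with earlier results of these data known. The 4 animals were male Sprague-Dawley rats between 10 and 12 weeks of age, kept on standard feed and given no treatment according to the labels. Each rat gave 1 liver RNA on its own Affymetrix array, and rats are numbered here by their replicate number. There was 1 group, so nothing was compared between conditions and no test was made. A difference between rats cannot be told apart from a difference between arrays, and each rat also had its own fluidics module.

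Stellate cells lie between the sinusoidal endothelium and the hepatocytes, store vitamin A in the normal liver, and turn into matrix-producing myofibroblasts after injury. They share the work of making matrix with portal fibroblasts and, for some components, with endothelial cells and hepatocytes. Fibrillar collagens are assembled from trimers of alpha chains: Col1a1 and Col1a2 encode the chains of type I collagen and Col3a1 the chain of type III collagen, which forms the fine reticulin fibres of liver. Dcn and Lum encode decorin and lumican, small leucine-rich proteoglycans that bind collagen fibrils, Sparc encodes a matricellular protein that binds collagen, and Timp1 encodes an inhibitor of matrix metalloproteinases. Des and Vim encode desmin and vimentin, intermediate filament proteins, of which desmin is the classical marker of stellate cells in the rat.

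The upstream sequence of Col1a2, Vim and Sparc, from 3 functional classes, is shown. On their brightest probe sets all had rats 2 and 4 above rats 1 and 3 in the values below, from which they were picked. Lum had that arrangement too and is not printed. On the second Sparc probe set rat 1 lay above rat 2. RefSeq's table of rat promoters (build GRCr8) held an entry for 6 of the 9 members (Col1a2, Des, Vim, Sparc, Lum and Timp1), and Col1a1, Col3a1 and Dcn had none there. The 250 bases before the annotated start site are printed 5′ to 3′ on the gene's strand in lower case. Capitals mark a match, on either strand, to the TATA box letters TATAAA, to the CAAT box letters CCAAT, to the GC box letters GGGCGG or to the E-box letters CACGTG.
Col1a2, chr4:33518307-33518556, plus strand: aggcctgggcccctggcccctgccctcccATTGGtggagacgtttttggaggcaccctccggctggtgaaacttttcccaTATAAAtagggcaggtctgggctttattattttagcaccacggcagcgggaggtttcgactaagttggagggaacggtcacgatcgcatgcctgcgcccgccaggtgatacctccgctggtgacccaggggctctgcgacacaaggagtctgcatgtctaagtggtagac
Vim, chr17:81577011-81577260, plus strand: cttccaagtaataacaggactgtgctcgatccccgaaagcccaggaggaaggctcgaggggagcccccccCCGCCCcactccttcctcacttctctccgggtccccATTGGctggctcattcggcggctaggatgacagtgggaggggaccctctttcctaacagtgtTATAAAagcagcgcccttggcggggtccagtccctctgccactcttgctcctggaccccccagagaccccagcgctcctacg
Sparc, chr10:40038817-40039066, minus strand: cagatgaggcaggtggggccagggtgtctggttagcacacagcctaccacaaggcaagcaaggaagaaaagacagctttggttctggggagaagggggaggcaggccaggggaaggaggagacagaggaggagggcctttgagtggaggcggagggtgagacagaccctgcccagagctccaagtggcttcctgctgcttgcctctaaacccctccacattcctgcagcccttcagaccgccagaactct

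In Col1a2 the window held 1 CCAAT on the reverse strand and 1 TATAAA, the latter from base -170 to base -165 counted from the annotated start site. In Vim it held 1 TATAAA from -82 to -77, 1 CCAAT on the reverse strand and 1 GGGCGG on the reverse strand. Sparc held none of the 4 motifs in this window. Lum had 1 CCAAT, Timp1 had 1 GGGCGG and Des had 3 GGGCGG. None of the 6 windows held CACGTG. Over all 33469 promoters of the table, 12.9% held TATAAA, 34.0% CCAAT, 30.5% GGGCGG and 5.59% CACGTG in the same window and on either strand. These matches describe letters only. No motif was common to the 3 printed windows.

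Values are log2 signals, so a step of 1 is a doubling of signal, and each mean is given ± SD over n = 4 rats. The background level of 9.09 was the signal below which 95% of 80 probe sets lay, by their means, that were assigned to 59 genes specific to brain, muscle, testis or eye. It depends on probe sets of Myh1, a skeletal muscle myosin, and was 8.40 without that gene. Of all genes, 19.2% lay above 9.09 and 42.3% above 8.40. Of the 9 members, 2 (Col3a1 and Sparc) lay above 9.09 and 5 (with Vim, Col1a2 and Col1a1) above 8.40, so their shares were near those of all genes. The probes of each set fix its brightness, so signals do not rank the transcripts by amount. Each of the 4 arrays had a median of 8.11 and an upper quartile of 8.69 to 8.70. Of all genes, 42.4% were flat, which means that their values on the 4 arrays were equal to within 0.001.

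The collagen genes were all lowest in rat 3, on each of their 5 probe sets, and their signal was highest in rat 2 or rat 4. Col3a1 had signals of 10.80, 11.15, 10.23 and 11.15 in rats 1 to 4, with a mean of 10.83 ± 0.43. Rats 2 and 4 were nearly equal and the highest, and rat 3 was the lowest. The signal of rat 2 was 1.89 times that of rat 3, and that of rat 4 was 1.89 times too. Without rat 3, the highest rat had 1.27 times the signal of the lowest. Among genes that were not flat, 1.12% had an SD at least as large as that of Col3a1.

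Col1a1, which encodes the alpha 1 chain of type I collagen, had 2 probe sets with the same source accession in the annotation. The brighter, 1388116_at, had signals of 8.43, 8.88, 7.76 and 9.09 in rats 1 to 4 (mean 8.54 ± 0.59), and the other, 1370864_at, had 8.25, 8.49, 8.04 and 8.46 (mean 8.31 ± 0.21). Both were lowest in rat 3 and both placed rats 2 and 4 above rats 1 and 3. They differed in size: the highest rat had 2.52 times the signal of the lowest on 1388116_at and 1.37 times on 1370864_at. The SD of 1388116_at was matched or exceeded by 0.383% of genes that were not flat. Its mean was -0.55 relative to the background level.

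Col1a2, the alpha 2 chain gene, also had 2 probe sets. The brighter, 1370155_at, had 8.47, 8.80, 8.28 and 8.74 in rats 1 to 4 (mean 8.57 ± 0.24), and 1387854_at had 8.15, 8.32, 7.72 and 8.35 (mean 8.14 ± 0.29). Rats 2 and 4 were again the top pair and rat 3 the lowest on both. The highest rat had 1.43 times the signal of the lowest on 1370155_at and 1.55 times on 1387854_at. Probe sets of 1 gene share the RNA and the array, so their agreement speaks to the probes and adds no animal.

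**Figure D1:**
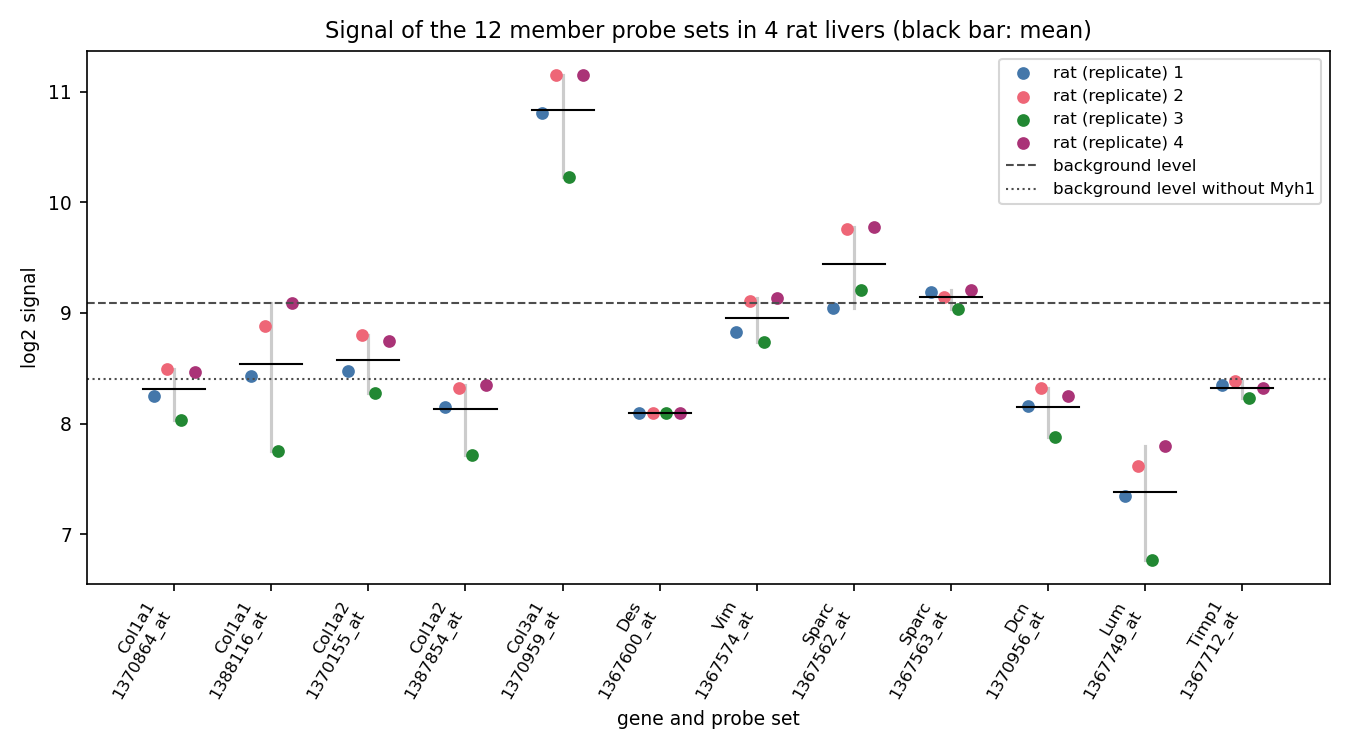
Log2 signal (vertical axis) of each of the 12 probe sets of the 9 genes (horizontal axis) in rats 1 to 4 (coloured points), with the mean as a black bar and the background levels of 9.09 and, without Myh1, 8.40 as lines. Rat 3 is the lowest point on 10 of the 11 probe sets that are not flat, and Des has the same value in all rats.

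The proteoglycan genes followed the collagens in order, at dim signals. Lum had 7.34, 7.61, 6.77 and 7.80 in rats 1 to 4 (mean 7.38 ± 0.45), and the highest rat had 2.05 times the signal of the lowest. Only 6.43% of genes had a lower mean than Lum. Dcn had 8.16, 8.32, 7.88 and 8.25 (mean 8.15 ± 0.19), with a ratio of 1.36 between highest and lowest. In both genes rats 2 and 4 were the highest and rat 3 the lowest. Both means lay below the background level with and without Myh1. The means of 12 control probe sets for Bacillus transcripts ran from 6.48 to 7.71, so Lum lay within their range and Dcn above it.

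Sparc, whose product binds collagen and regulates its assembly, gave 2 probe sets that disagreed in size and in the lowest rat. The brighter, 1367562_at, had 9.04, 9.76, 9.21 and 9.77 in rats 1 to 4 (mean 9.45 ± 0.38). Rats 2 and 4 were again the top pair, but rat 1 and not rat 3 was the lowest. The highest rat had 1.66 times the signal of the lowest. The other probe set, 1367563_at, had 9.19, 9.14, 9.04 and 9.21 (mean 9.15 ± 0.08), with rat 3 the lowest and rat 1 level with rat 4. Here the ratio between highest and lowest was 1.12. The 2 probe sets carry the same source accession in the annotation, so the spread of Sparc between rats depends on the probe set taken.

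Timp1, which inhibits matrix metalloproteinases and is induced in injured liver, varied little. It had 8.35, 8.39, 8.24 and 8.32 in rats 1 to 4 (mean 8.32 ± 0.06). This mean lay below the background level with and without Myh1, so the small spread does not show that the transcript was steady. Rat 3 was the lowest and rat 2 the highest, but the ratio between them was 1.11. An SD as large was found in 34.1% of genes that were not flat. Timp1 was the 1 member that was not flat and did not have rats 2 and 4 above rats 1 and 3.

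Of the intermediate filament genes, Vim followed the collagens and Des gave no information on the rats. Vim, which is made by mesenchymal, endothelial and blood cells, had 8.82, 9.10, 8.74 and 9.13 in rats 1 to 4 (mean 8.95 ± 0.20). Rats 2 and 4 were the top pair and rat 3 the lowest, with a ratio of 1.31 between highest and lowest. The mean was -0.14 relative to the background level and 0.55 above the level without Myh1. Des had a signal of 8.09 in each of the 4 rats and was flat. Such equal values come from the deposited data and do not measure the spread of desmin transcripts between animals.

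The label of these genes as stellate cell genes was checked against 7 stellate cell markers. Of these 7, 1 was above background with or without Myh1: Reln, which encodes the secreted protein reelin, at 9.25, 9.32, 8.99 and 9.25 in rats 1 to 4 (mean 9.20 ± 0.15). Rat 3 was the lowest for Reln, as for the collagens, but Ngfr, Gfap and Hgf were lowest in rat 2 and Pdgfrb in rat 1. The other markers were Des and Lrat, the retinol-esterifying enzyme of vitamin A storage, both flat at 8.09 and 8.10, Ngfr at 7.43 ± 0.09, Gfap at 8.26 ± 0.02, Hgf at 7.73 ± 0.05 and Pdgfrb at 7.74 ± 0.03. The share, 1 of 7, was near the 19.2% of all genes above 9.09 and lower than the 42.3% of all genes above 8.40. Des, 1 of the 7, is itself a member. That count does not tell which cells gave the members' signal, so the set is treated below as collagen, matrix and intermediate filament genes. The summed signal of the 7 markers was 11.01, 11.02, 10.94 and 11.02 on the log2 scale in rats 1 to 4. As 1 of the 7 was above background and 2 were flat, this sum says little about stellate cell content in the rats. In whole liver RNA, fewer cells of a type and less RNA per cell cannot be told apart.

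**Figure D2:**
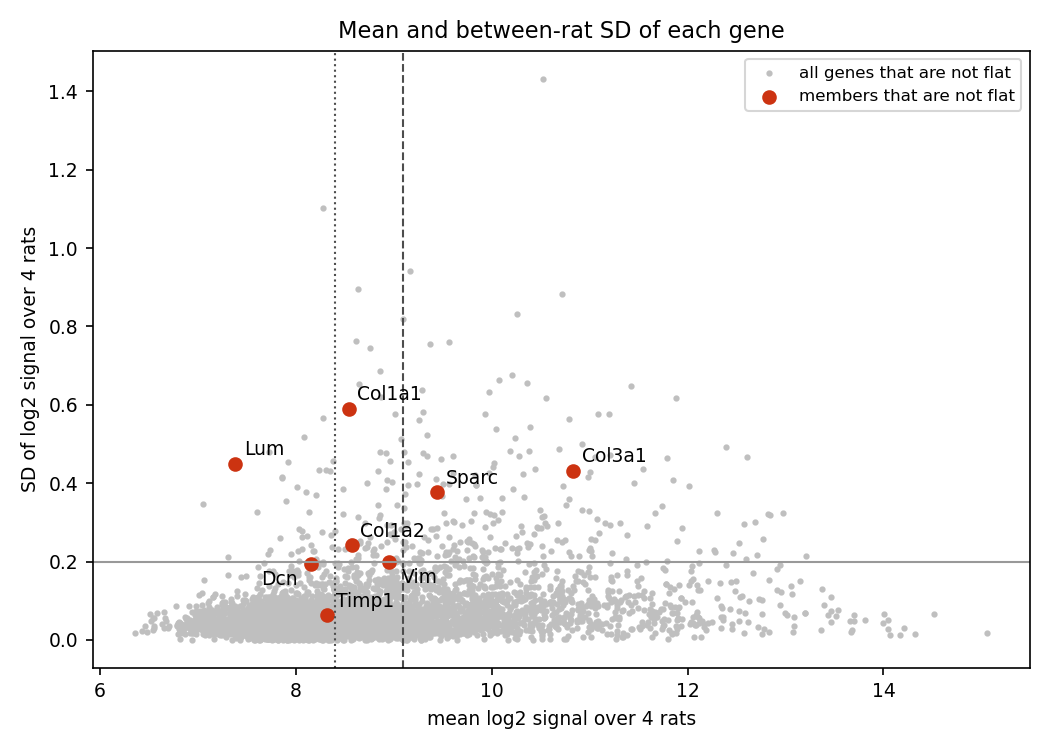
Mean log2 signal over 4 rats (horizontal axis) against the SD over the 4 rats (vertical axis) for each gene that is not flat, taken by its brightest probe set. The 8 members that are not flat are red and named; the dashed and dotted lines are the background levels of 9.09 and 8.40, and the horizontal line is an SD of 0.2, which Col1a1, Lum, Col3a1, Sparc and Col1a2 exceed.

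The members differed between rats more than most genes on the array. An SD over 0.2 log2 units was found in 5 of the 9 members and in 2.98% of all genes. With flat genes left out it was 5 of 8 members and 5.16% of genes. Among genes above background, flat ones included, 10.8% passed that value, and both members above background did on their brightest probe sets. The second probe set of Sparc, also above background, had an SD of 0.08. Vim, with an SD of 0.199, and Dcn, with 0.194, lay just under it. The count was 3 without rat 3, and between 6 and 7 when one of the other rats was left out. The comparison carries no test.

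The order of the rats was the feature the members shared. Rat 3 had the lowest signal for 7 of the 8 members that were not flat, against 22.1% of all genes that were not flat. The exception was Sparc. Of the 2 members above background it was the lowest for 1, Col3a1, against 15.5% of genes above background that were not flat. Rats 2 and 4 both lay above rats 1 and 3 in 7 of the 8, all but Timp1, against 16.5% of genes that were not flat, and the opposite arrangement, with rats 1 and 3 on top, was found in 0 members and 20.1% of genes. Both rat 3 and that arrangement of the rats were singled out after the members' values were seen. The shares of all genes beside them are for description only. Among genes with an SD over 0.2, 18.1% were lowest in rat 3 and 20.0% had rats 2 and 4 on top, while 4 of the 5 members with such an SD were lowest in rat 3. The median deviation of the 8 members from their own means was -0.07, 0.23, -0.28 and 0.25 in rats 1 to 4. Over all genes that were not flat it was between -0.003 and 0.004. The members are not independent of each other, and all rest on the same 4 RNA samples.

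Other collagen genes were taken from a list of 24, of which 20 had a probe set. Of these 20, 8 were flat, and 1, Col18a1, was above background, with 8 above the level without Myh1. Rat 3 was the lowest for 7 of the 12 that were not flat, beside the 22.1% of all genes. The median deviation of the 12 was 0.00, 0.04, -0.02 and 0.01 in rats 1 to 4, far smaller than that of the members. The arrangement of the members, with rat 3 lowest and rats 2 and 4 on top, was found in 3 of the 12, against 7.56% of genes that were not flat. These 3, named after their values were seen, were Col5a2, Col6a1 and Col6a3. Type V collagen is built into type I fibrils, and type VI collagen forms beaded filaments beside them.

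Col6a3 had signals of 8.42, 8.55, 8.02 and 8.47 in rats 1 to 4 (mean 8.36 ± 0.24). Col6a1 had 8.94, 9.13, 8.74 and 9.16 (mean 8.99 ± 0.20), and Col5a2 had 8.11, 8.28, 8.05 and 8.35 (mean 8.20 ± 0.14). The deviation of rat 3 from the gene's mean was -0.35 for Col6a3, -0.25 for Col6a1 and -0.15 for Col5a2, beside -0.60 for Col3a1 and -0.29 for Col1a2. The basement membrane chains, also named after their values were seen, behaved unlike each other. Col4a1 had 8.86 in rat 3, below the 8.99 of rats 2 and 4, with which rat 1 was level, and Col4a2 had 8.74, 8.93, 8.87 and 8.82, with rat 1 the lowest. Col18a1, which hepatocytes also make, had 10.80, 10.92, 10.89 and 10.87 (mean 10.87 ± 0.05), and rat 3 was its second highest rat. Col5a1 was flat at 9.04.

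**Figure D3:**
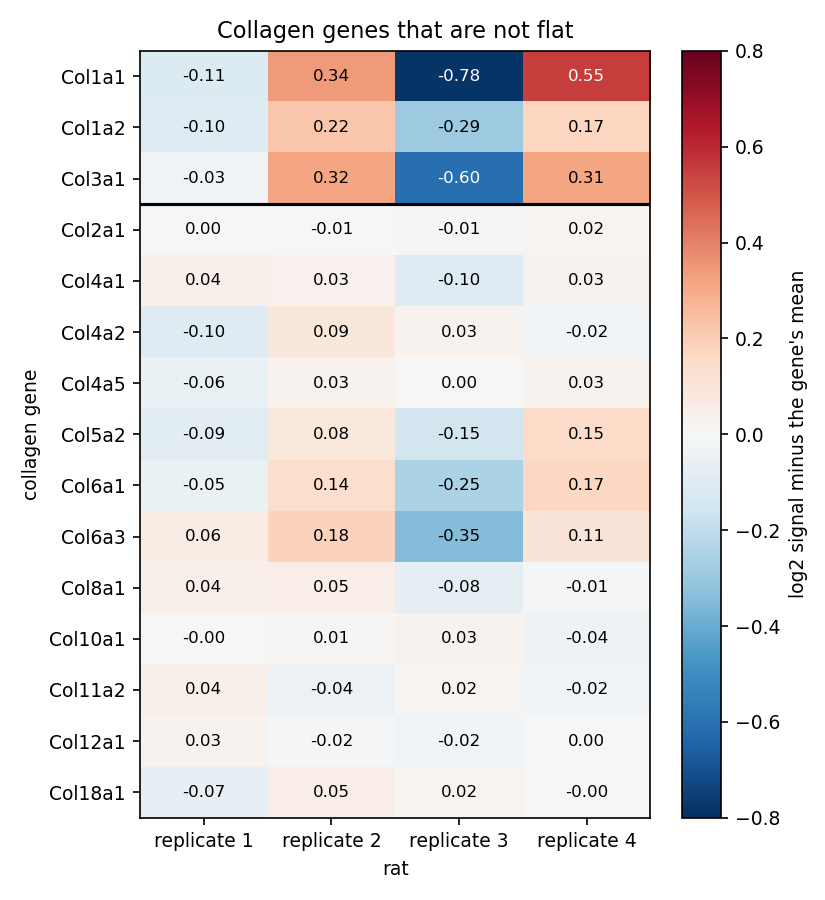
Log2 signal minus the gene's mean over 4 rats (colour and printed number) for each collagen gene that is not flat (rows) in rats 1 to 4 (columns), with the 3 member collagens above the line and the 12 other collagens below it. Rat 3 is lowest for the 3 member collagens and for 7 of the 12 others, of which Col6a3 has the lowest deviation, -0.35.

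Among the enzymes that fold, carry and crosslink collagen, the brightest pair was lowest in rat 1. Of 18 such genes with a probe set, 6 were above background and 9 were not flat, and of these 9 rat 3 was the lowest for 3 and rat 1 for 4. P4hb, the disulfide isomerase that is also the beta subunit of collagen prolyl hydroxylase, had 12.30, 12.41, 12.35 and 12.39. Ppib, a prolyl isomerase of the endoplasmic reticulum, had 10.92, 11.24, 11.30 and 11.36, with rat 1 the lowest. Lox, which crosslinks collagen, had 9.04, 9.69, 10.07 and 9.61 (mean 9.61 ± 0.43), and rat 3 was its highest rat, opposite to the collagens. Over the whole array 19.2% of genes were above background, and rat 3 was the lowest for 22.1% of those that were not flat. These enzymes also serve proteins other than collagen.

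Rat 3 was the lowest for 1 of 11 proteoglycans outside the members and 6 of 16 matrix glycoproteins, beside 22.1% of all genes that were not flat. These counts are small. Of 18 proteoglycan genes, 4 were above background and 11 were not flat, and rat 3 was the lowest for 1 of the 11. Sdc2, a cell surface heparan sulfate proteoglycan that hepatocytes carry, had 11.68, 11.76, 11.79 and 11.80. Sdc4 had 10.80, 11.30, 10.92 and 11.35 (mean 11.09 ± 0.27), with rats 2 and 4 on top and rat 1 the lowest, which is the order of Sparc. Of 24 matrix glycoproteins and basement membrane genes, 5 were above background and 16 were not flat, and rat 3 was the lowest for 6 of the 16. Of the 4 above background that were not flat it was the lowest for 3, with a median deviation of -0.11 in that rat. The share over all genes above background that were not flat was 15.5%. Vtn and Fn1, vitronectin and fibronectin, which hepatocytes secrete into plasma, had means of 13.68 ± 0.02 and 12.52 ± 0.07. Igfbp7, a secreted protein of vessels and mesenchyme, had 9.91, 10.02, 9.74 and 10.04 (mean 9.92 ± 0.14), the arrangement of the collagens.

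For matrix degradation and for signalling, 12.5% and 8.70% of genes were above background, beside 19.2% of all genes. Rat 3 was the lowest for 22.1% of all genes that were not flat. Of 24 genes for matrix degradation and its inhibitors, 3 were above background, and of the 15 that were not flat rat 3 was the lowest for 7, all 7 below background and with a median deviation of -0.01 over the 15 in that rat. Of them Mmp2, the gelatinase A of mesenchymal cells, named after its values were seen, had 8.28, 8.32, 8.08 and 8.41. The lysosomal cathepsins Ctsl and Ctsb had means of 11.64 ± 0.12 and 11.40, the latter flat. Of 23 genes for TGF-beta, PDGF and CTGF signalling, 2 were above background, and of 18 that were not flat rat 3 was the lowest for 4 and the highest for 6. The 2 above background were Inhbe, an inhibin chain made by hepatocytes, with 9.79, 9.73, 10.27 and 9.50, and Eng, an endothelial co-receptor for TGF-beta, with 9.59, 9.39, 9.87 and 9.41. Rat 3 was the highest rat for both. Of 10 collagen and matrix receptors, 3 were above background, and of 7 that were not flat rat 3 was the lowest for 3. Egfr had 10.86, 9.39, 10.66 and 9.93, with rats 1 and 3 on top, and Itgb1, the beta chain of collagen-binding integrins, had a mean of 9.29 ± 0.06. Of 15 intermediate filament genes and partners outside the members, 3 were above background, among them the hepatocyte keratins Krt8 at 10.32 ± 0.42 and Krt18 at 10.72 ± 0.25. Rat 3 was the lowest for Krt8 and rat 1 for Krt18.

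Markers of other cells that contribute matrix were set beside the members. The shares for all genes were 19.2% above background and, where not flat, 22.1% lowest in rat 3. The list of 17 stellate and pericyte genes outside the members held all the stellate cell markers above except Des. Of these 17, 2 were above background, Reln and Ecm1, the latter flat at 10.33. Of 9 that were not flat, rat 3 was the lowest for 1, Reln. Of 17 fibroblast and portal tract genes, 2 were above background, and of 10 that were not flat rat 3 was the lowest for 4. Dpt, a matrix protein that binds decorin and collagen, had 10.23, 10.04, 9.58 and 10.20 (mean 10.01 ± 0.30), with rat 3 the lowest, and Mgp had 9.10, 9.12, 9.11 and 9.19. Of 11 smooth muscle genes, 2 were above background, and of 6 that were not flat rat 3 was the lowest for 2. Cald1 had a mean of 9.96 ± 0.05 and Mylk was flat at 9.96. The 3 genes of the liver capsule with a probe set were all below background, Msln at 7.96 ± 0.07 and Wt1 flat at 7.65. Summed signals on the log2 scale in rats 1 to 4 were 12.52, 12.50, 12.41 and 12.52 for the fibroblast list and 12.15, 12.10, 12.11 and 12.10 for smooth muscle. For the members they were 12.14, 12.48, 11.84 and 12.50. The part of these cell types in the order of the rats was not tested.

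**Figure D4:**
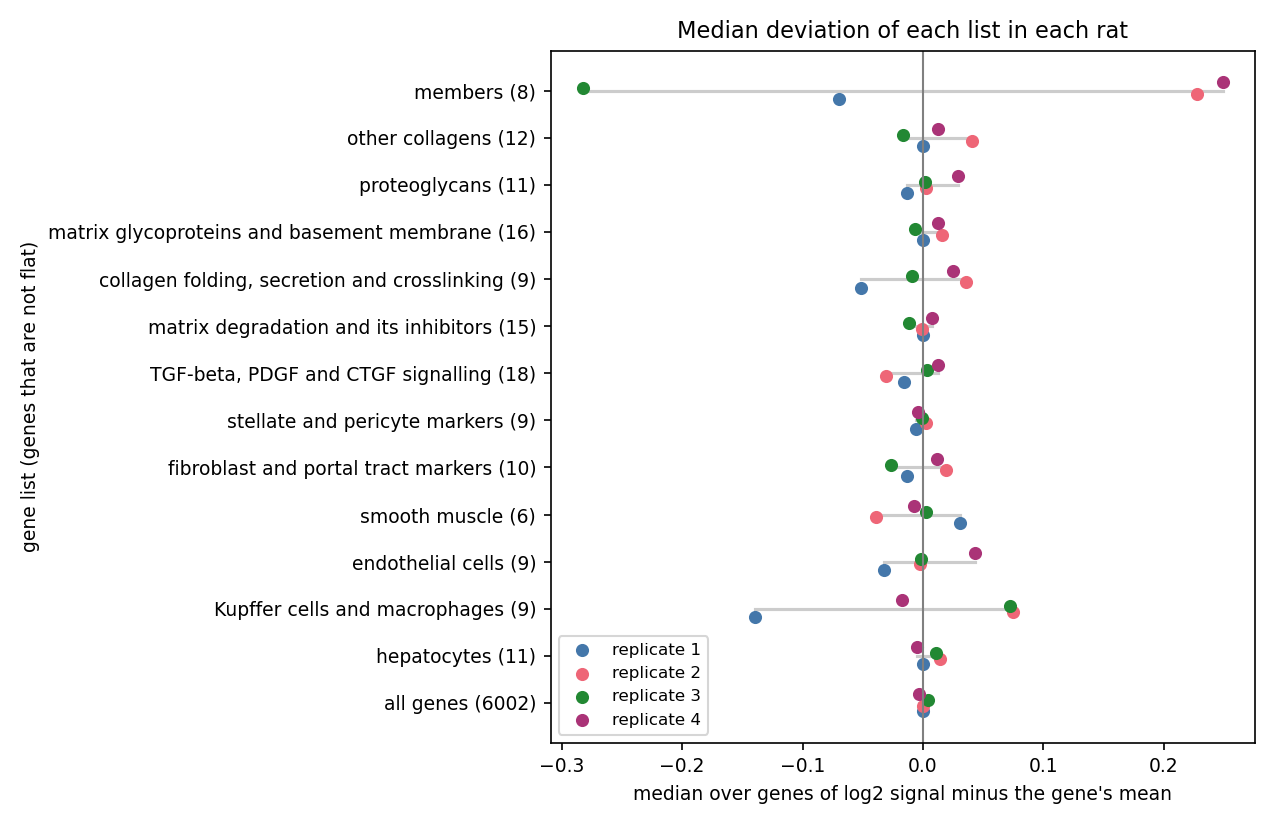
Median over genes of the log2 signal minus each gene's mean (horizontal axis) for each gene list (vertical axis, with the number of genes that are not flat) in rats 1 to 4 (coloured points). The members span -0.28 in rat 3 to 0.25 in rat 4; the next widest span is that of the Kupffer cell list, which is lowest in rat 1.

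The remaining lists covered other cells of the liver, to be read beside the same shares of all genes, 19.2% and 22.1%. Of 11 Kupffer cell and macrophage genes, 10 were above background, and their summed signal was 13.25, 13.50, 13.40 and 13.39 in rats 1 to 4. Rat 1 was the lowest for 5 of the 9 that were not flat and rat 3 for 2. Cd74 had a mean of 10.72 ± 0.15, Clec4f 10.51 ± 0.24 and Cd14 9.50 ± 0.37. Of 13 endothelial genes, 3 were above background, with a summed signal of 12.24, 12.20, 12.26 and 12.28. Kdr was flat at 9.56, Fcgr2b had 9.40 ± 0.14 and Ehd3 9.09 ± 0.23. Of 9 endothelial genes that were not flat, rat 3 was the lowest for 2. None of 6 bile duct genes (Epcam 8.24 ± 0.10, Spp1 8.10 ± 0.03) and none of 13 lymphocyte and neutrophil genes (Cd4 8.51 ± 0.08, Ccl5 8.51 ± 0.07) was above background. All 11 hepatocyte genes were above background and rat 3 was the lowest for 3 of them. Their summed signal ran from 16.98 to 17.01, with Alb at 15.06 ± 0.02, Ttr at 14.32 ± 0.02 and Tat the most variable above background.

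The hemoglobin signal was arranged opposite to the collagens in its pairs of rats. Hbb, the beta-globin gene of red blood cells and the 1 of 5 blood cell genes above background, had 11.91, 11.27, 11.64 and 11.00 in rats 1 to 4 (mean 11.46 ± 0.40). Rats 1 and 3 lay above rats 2 and 4, so the pairs of rats were the reverse of the members. Of all genes that were not flat, 20.1% had that arrangement. The highest rat for Hbb was rat 1, not rat 3. Alas2, the heme synthesis enzyme of red cells, had a mean of 8.33 ± 0.10 and was below background, with rats 1 and 3 above rats 2 and 4 too (8.43, 8.22, 8.40 and 8.28). Ppbp, the remaining blood cell gene that was not flat, named after its values were seen, was below background and had rats 2 and 3 on top. The part of blood in the order of the rats was not tested.

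The genes most like Col3a1 and Sparc over the 4 rats were sought among 1527 genes above background that were neither flat nor members, by the smallest root mean square difference of their deviations. For Col3a1 the nearest was Aldh1a1, a retinaldehyde dehydrogenase, at a difference of 0.046, with signals of 9.17, 9.43, 8.58 and 9.40 in rats 1 to 4. Cfhr4 (0.176), Gpx3 (0.192), Dpt (0.214) and Hsd17b2 (0.218) came next, so a clear step separated Aldh1a1 from the rest. For Sparc the nearest was Acsl5, an acyl-CoA synthetase, at 0.067, with 10.53, 11.13, 10.77 and 11.25. It was followed by Sdc4 (0.090), Psmb8 (0.107), Krt18 (0.109) and Enpp1 (0.123). With 4 rats, likeness over so few points describes these animals alone.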

How the data were processed

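Liver RNA of 4 rats, 1 group, was measured on 1 array each. The deposited values are log2 signals per probe set. The submitters' processing notes name R 2.4.1, affy 1.12.2, GCRMA and RMA; which of them gave the values is not given in the sources used here. All 4 arrays had been brought to a common scale, which can shrink differences between them. Per the file headers the arrays were of 1 lot and of type RAE230A, while the labels name RAE230-2.

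A gene with several probe sets was represented by its brightest. Probe sets with several symbols (312, none listing a member) or no symbol (2822) were not named. List symbols were matched through RefSeq symbols and synonyms. The background list held 70 genes, 59 with a probe set. The members and the 18 lists were chosen with earlier results of these data known. Named were all members, the 5 genes most like each member above background with an SD over 0.2, and per list the 2 brightest genes and the most variable gene above background, beside the stellate cell markers and genes said to be named after their values were seen. The number of arrays limits precision. Scripts ran in Python 3.11.15 with numpy 2.4.6 and pandas 2.3.3 and were tested on simulated data. Alternatives covered the background level, probe sets, scaling, thresholds and leaving out each rat. Protein sequences were not analysed here.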

Additional observations from a re-analysis of the deposited data

Results flagged for a closer look

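The members' probe sets and the named genes that were not flat gave 64 sets of 4 values. Of these 64, 4 had 1 rat far from the other 3 relative to their range. None of the 4 was a member. Chance gives about 5% only for sets not picked by their values. Some were so picked, among them Cd14 by its SD and Col4a1 after its values were seen. The count is therefore not compared with that rate. Mgp, of the fibroblast list, had 9.19 in rat 4 against 9.10 to 9.12 in the others. Cd14, of the Kupffer cell list, had 8.95 in rat 1 against 9.63 to 9.70. Col4a1, a basement membrane collagen below background, had 8.86 in rat 3 against 8.99 and above in the others. Gfap, a stellate cell marker below background, had 8.30 in rat 1 against 8.25 in the others.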

How the results depend on the processing

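No paired analysis was possible because there was 1 group. The number of members above background was 2 in the main setting, 5 without the suffixes s, x and a, 5 at the 90th percentile, 5 without Myh1 and 1 at the 98th percentile, where all genes above background were 37.2%, 43.2%, 42.3% and 4.68%; it was 2 without each rat in turn. The number of members with an SD over 0.2 ranged from 3 to 7 when 1 rat was left out, with 3 without rat 3, and the ratio of highest to lowest rat for Col3a1 ranged from 1.27 (without rat 3) to 1.89 when 1 rat was left out and was 1.97 under quantile normalization. The number of members lowest in rat 3 was 7 in each setting that kept all rats, and 7 to 8 without rat 1, 2 or 4. The share of all genes that were not flat ran from 20.5% to 24.8% in the settings that kept all rats. It rose to 31.0% without rat 1, 29.1% without rat 2 and 30.7% without rat 4. Without rat 3 neither has a value. The median deviation in rat 3 of the members above background was -0.42 and ran from -0.60 (98th percentile) to -0.29 over all settings. The range as a measure of spread is given by the ratios. Des was flat, so its SD moved to 0.002 under either other scaling. Dim signals limit what can be said of Col1a1, Col1a2, Vim, Des, Dcn, Lum and Timp1.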
